A study of Mus musculus with 12 samples.

Results

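The neurogenin, NeuroD, NHLH and Atoh1 activators of the basic helix-loop-helix (bHLH) class, with their relative Bhlhe22, were followed in spiral ganglion neurons of mouse embryos. The set was chosen by name and held 10 genes: Neurod1, Neurod2, Neurod4, Neurod6, Neurog1, Neurog2, Nhlh1, Nhlh2, Atoh1 and Bhlhe22. Of the 25674 gene identifiers in the count table, 8 were matched to these symbols. No identifier was matched to Neurog2 or Atoh1, so these were not analysed here. The smallest total of any identifier in the table was 10 counts, and why these 2 genes are absent was not tested. The test across the whole table kept 14813 genes, of which 7 were members, since Neurod4 had too few counts in most libraries.

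The samples were 12 libraries, 6 labelled ISL1CKO and 6 control, each from 100 tdTomato-positive neurons sorted by flow cytometry from both inner ears of 1 embryo at embryonic day E14.5. Control embryos had the genotype Neurod1Cre;Rosa26tdTOM, and the ISL1CKO embryos were Neurod1Cre;Isl1loxP/loxP;Rosa26tdTOM, all of either sex on a mixed C57BL/6/sv129 background and from 4 litters. The comparison asks what changes in these neurons when the LIM homeodomain factor ISL1 is deleted by Cre. Litter was not given per sample, so it could not be entered in a fit. One label tag calls the numbered libraries technical replicates, whereas the design text and the protocol describe separate embryos, and they were treated as separate embryos.

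Both genotypes carry the Neurod1Cre transgene, a bacterial artificial chromosome in which the Cre sequence follows the start codon of Neurod1. The deletion and the sort therefore both depend on the control sequences of 1 of the members. Counts per gene cannot separate transcripts of the endogenous Neurod1 gene from any transgene transcripts that hold Neurod1 sequence.

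Proneural bHLH proteins bind DNA as dimers with the widely expressed E proteins, at E-boxes of the letters CANNTG. Neurog1 starts neurogenesis in the otic vesicle, Neurod1 acts after it in the differentiating and migrating neuroblasts, and the other NeuroD and NHLH genes are mostly switched on in young neurons. ID proteins lack the DNA-binding region and hold E proteins away from such dimers.

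Total counts ran from 11895603 to 13857480. Isl1 itself, the targeted gene, measured 1391 ± 184 CPM (SD, n = 6; CPM is the count relative to the library's scaled total) in the ISL1CKO libraries and 1538 ± 217 CPM in the controls, a log2 difference of -0.15 with an adjusted p of 0.46 by edgeR's quasi-likelihood test. Counts over the whole gene cannot show the removal of a segment between loxP sites, so the deletion was not checked by them, and "ISL1CKO libraries" means libraries so labelled. ISL1CKO libraries 2, 3 and 5 held Xist at 62.9 to 132 CPM together with Y-linked transcripts at a mean of 35.7 to 87.3 CPM, which goes against 1 embryo per sample, and 0 control libraries did so. The sort was described by 11 spiral ganglion neuron markers, all of which passed the filter. At an adjusted p under 0.05, 5 were lower in the ISL1CKO libraries (Gata3, Ntrk2, Ntrk3, Nefl and Nefm) and 1 was higher (Slc17a6). Over all tested genes, 10.2% passed this threshold. The markers' summed level was 7930 to 9567 CPM in ISL1CKO against 12390 to 14420 CPM in the controls. That sum is weighted toward abundant genes. Nefm had means of 881 CPM in ISL1CKO and 3337 CPM in control. Tubb3, at 3940 and 3210 CPM, and Pou4f1, at 929 and 1068 CPM, did not pass.

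In the ISL1CKO libraries 4 of the 7 tested members rose, namely Neurod1, Neurod2, Neurod6 and Nhlh2, and 1 fell, Bhlhe22. Nhlh1 and Neurog1 did not pass the test. The rises were 1.85 to 2.81 times and the fall was 5.14 times in mean level. Over all tested genes 10.2% were called at an adjusted p under 0.05 with edgeR's quasi-likelihood test, 5.01% as higher and 5.19% as lower. The median log2 fold change, as ISL1CKO minus control, was 0.88 over the 7 members and 0.0045 over all tested genes.

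Promoter sequence is shown for the 4 members that rose and for Nhlh1, the paralog of Nhlh2, so that the E-boxes near their starts can be compared. A RefSeq entry on GRCm38.p6 was matched for 7 of the 8 members in the table. The window searched was the 250 bases before the start of the RefSeq entry, and what is printed stops where the first annotated exon of any gene begins. For Neurod1 that exon belongs to another gene, so the print stops short of Neurod1 as positioned below. For Neurod1, Neurod2 and Nhlh2 the RefSeq start lies inside the gene as positioned below. Distances are counted from the RefSeq start, so for these genes they are longer than distances from the gene's end as positioned. Each line reads 5′ to 3′ on the strand of the gene, and capitals mark matches of CANNTG, a palindromic pattern that covers both strands.
Neurod1, chr2:79456786-79456886, minus strand: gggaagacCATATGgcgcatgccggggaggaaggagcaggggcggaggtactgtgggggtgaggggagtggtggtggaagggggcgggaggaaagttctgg
Neurod6, chr6:55681264-55681513, minus strand: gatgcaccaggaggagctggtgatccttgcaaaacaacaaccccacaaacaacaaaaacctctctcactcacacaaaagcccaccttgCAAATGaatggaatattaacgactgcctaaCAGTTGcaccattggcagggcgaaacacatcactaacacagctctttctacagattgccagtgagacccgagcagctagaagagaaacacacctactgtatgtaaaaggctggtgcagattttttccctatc
Neurod2, chr11:98329649-98329895, minus strand: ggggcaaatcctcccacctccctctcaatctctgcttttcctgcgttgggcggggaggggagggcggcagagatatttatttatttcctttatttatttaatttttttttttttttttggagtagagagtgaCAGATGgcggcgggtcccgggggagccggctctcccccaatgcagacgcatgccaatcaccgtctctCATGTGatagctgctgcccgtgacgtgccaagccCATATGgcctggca
Nhlh2, chr3:102009895-102010075, plus strand: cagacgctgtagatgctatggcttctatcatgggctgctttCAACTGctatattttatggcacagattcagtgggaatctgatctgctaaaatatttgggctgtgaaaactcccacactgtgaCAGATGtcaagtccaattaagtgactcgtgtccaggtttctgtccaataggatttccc
Nhlh1, chr1:172057597-172057846, minus strand: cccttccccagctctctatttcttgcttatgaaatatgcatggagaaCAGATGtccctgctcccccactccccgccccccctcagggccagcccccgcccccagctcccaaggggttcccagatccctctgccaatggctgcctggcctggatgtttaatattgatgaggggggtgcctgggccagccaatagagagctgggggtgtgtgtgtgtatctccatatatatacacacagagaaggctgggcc

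The Neurod2 window held 3 matches, CAGATG at 118, CATGTG at 51 and CATATG at 17 bases before the start. Neurod6 had CAAATG at 162 and CAGTTG at 132 bases, and Nhlh2 had CAACTG at 209 and CAGATG at 127 bases. Neurod1 and Nhlh1 had 1 match each, CATATG at 242 and CAGATG at 203 bases. No CANNTG match was found in the windows of Neurog1 and Neurod4. Over 32817 windows of the same length in the RefSeq table, 66.2% held at least 1 match, 31.8% at least 2 and 12.2% at least 3. CAGATG on either strand, one form of the CANNTG pattern, occurred in 14.46% of all windows. The homeodomain pattern CTAATNG, searched on both strands and able to overlap CANNTG only in part, was in 5.08% of all windows and in 0 member windows. These matches describe letters only, and the presence or absence of a match says nothing about binding.

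Neurog1, the first proneural gene of the otic lineage, was low in both genotypes and at 0 counts in 5 of the 12 libraries. The gene lies at chr13:56250478-56252163 on the minus strand of GRCm38 in a single exon. Its counts in ISL1CKO libraries 1 to 6 were 21, 0, 12, 0, 11 and 31, and in control libraries 1 to 6 they were 0, 15, 0, 17, 17 and 0. The libraries at 0 allow a level of up to 0.220 to 0.250 CPM, taken as 3 counts. The groups overlapped fully, with a mean of 0.955 ± 0.931 CPM in ISL1CKO and 0.619 ± 0.683 CPM in control (SD, n = 6 each). The log2 difference was 0.61, with a 95% interval from -1.84 to 3.06 and an adjusted p of 0.8 by edgeR's quasi-likelihood test. Each library held either 0 counts or 11 to 31, and the interval spans large changes in either direction.

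Neurod1, the factor needed for the survival and migration of inner ear neuroblasts, was the most abundant member in both groups. It lies at chr2:79452521-79456751 on the minus strand with 2 exons. The lowest, median and highest levels were 1852, 2804 and 3574 CPM in the ISL1CKO libraries and 849, 1540 and 1812 CPM in the controls. All ISL1CKO libraries were therefore above all controls, although ISL1CKO 3 was only just above control 2. The rise was 0.88 on the log2 scale (SE 0.18, 95% interval 0.50 to 1.26), with an adjusted p of 0.00435 by edgeR's quasi-likelihood test. Per kilobase of exon the level was 995 ± 228 CPM in ISL1CKO and 539 ± 129 CPM in control (SD, n = 6 each). That placed Neurod1 26th and 47th among the tested genes of each group. Its first exon shares bases with an exon of Cerkl on the same strand and one of Gm26755 on the opposite strand, and the use of strand in counting is not given in the sources used here, so part of its counts is uncertain.

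Neurod6, a NeuroD paralog best known from cortical and other young projection neurons, followed Neurod1 closely. The gene is at chr6:55677822-55681263 on the minus strand. The ISL1CKO libraries ran from 171.5 through a median of 275 to 340.5 CPM, and the controls from 72.1 through 124 to 159 CPM. No control reached the lowest ISL1CKO library. The log2 fold change was 1.11 (SE 0.20), with an adjusted p of 0.00174 by edgeR's quasi-likelihood test.

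Neurod2, the paralog that shares cortical roles with Neurod6, was expressed at a far lower level. Its position is chr11:98325415-98329648 on the minus strand. Levels were 23.7, 43.5 and 66.7 CPM (lowest, median and highest) in ISL1CKO and 5.41, 16.5 and 22.6 CPM in control. The groups were separate but nearly touched, at ISL1CKO 3 and control 3. The log2 fold change was 1.49 (SE 0.36) with an adjusted p of 0.0149 by edgeR's quasi-likelihood test. Without ISL1CKO 2, 3 and 5, the libraries with transcripts of both sexes, the log2 fold change was 1.32 and the adjusted p 0.114, which no longer passed. Neurod2 measured 23.7 to 66.7 CPM in those 3 libraries and 27.96 to 50.9 CPM in the other ISL1CKO libraries.

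Neurod4, at chr10:130268152-130280240 on the minus strand, was barely detected except in 1 library. Its counts in ISL1CKO libraries 1 to 6 were 2, 5, 3, 3, 94 and 1, and in the controls they were 5, 6, 4, 2, 2 and 1. ISL1CKO 5, one of the libraries with transcripts of both sexes, thus held most of the ISL1CKO counts, at 6.86 CPM. With no filter on low counts the log2 fold change was 2.30 and the adjusted p 0.257 by edgeR's quasi-likelihood test.

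Nhlh2 and Nhlh1 encode a pair of closely related bHLH proteins that are transient in newborn neurons, and they responded unequally. Nhlh2 lies at chr3:102010076-102015492 on the plus strand. Its lowest, median and highest levels were 757.5, 898 and 1047 CPM in ISL1CKO and 350, 453 and 494 CPM in control, so the groups were well apart. The log2 fold change was 1.07 (SE 0.11, 95% interval 0.85 to 1.30), with an adjusted p of 8.66e-06 by edgeR's quasi-likelihood test, the smallest p among the members.

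Nhlh1, at chr1:172052292-172057573 on the minus strand, gave 137, 287 and 347 CPM in ISL1CKO and 159, 235 and 267 CPM in control. The groups overlapped, and ISL1CKO 1 and 3 lay among the lowest of all libraries. Its log2 fold change was 0.22 (95% interval -0.22 to 0.65) with an adjusted p of 0.581 by edgeR's quasi-likelihood test. Per kilobase of exon, the levels of the pair in controls were 90.5 ± 16.3 CPM for Nhlh1 and 79.2 ± 11.3 CPM for Nhlh2, within each other's spread. In ISL1CKO they were 105 ± 34.8 CPM and 167 ± 20.1 CPM (SD, n = 6 each), with Nhlh2 above Nhlh1.

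The unequal response of the NHLH pair was tested within libraries, by the ratio of Nhlh2 counts to Nhlh1 counts, which does not depend on library scaling. It was 3.79 ± 1.2 in ISL1CKO and 1.96 ± 0.32 in control (SD, n = 6 each), running from 2.87 to 5.97 and from 1.48 to 2.40 with no overlap. In the exact 2-sided permutation test on log2 ratios over 924 splits, p was 0.00217, the smallest this design can give, and the adjusted p over the 4 ratios tested was 0.00866. The ratios among NeuroD genes did not pass. Neurod1 to Neurod6 was 10.5 in ISL1CKO and 12.1 in control, with an exact permutation p of 0.0563 and an adjusted p of 0.075. Neurod1 to Neurod2 was 67.2 and 124.5 with an exact permutation p of 0.0411 and an adjusted p of 0.075, and control 4 alone stood at 297.5. Neurod6 to Neurod2 was 6.39 and 10.1, with an exact permutation p of 0.115. The tests of ratios were chosen after the levels had been seen.

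**Figure D1:**
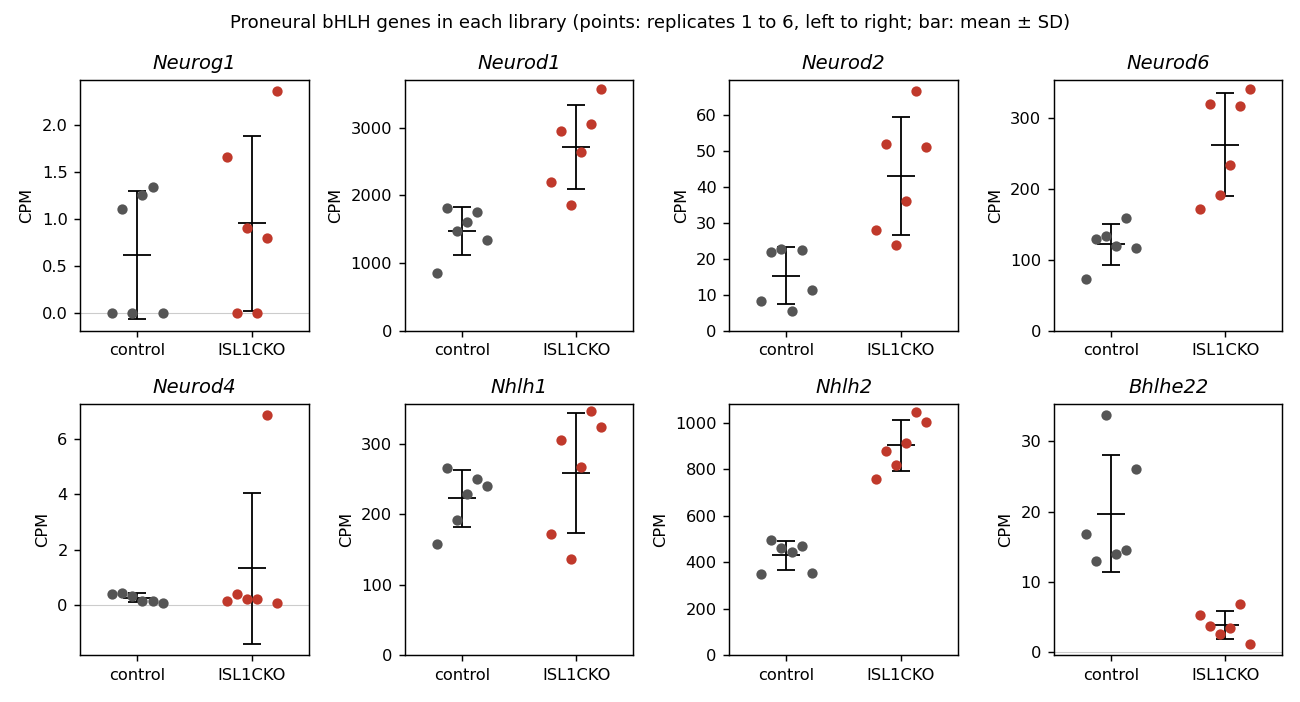
Level of each of the 8 members in each library, in CPM after scaling, with controls in grey and ISL1CKO libraries in red and the mean and SD marked. The groups are separate for Neurod1, Neurod2, Neurod6, Nhlh2 and Bhlhe22, and they overlap for Nhlh1, Neurog1 and Neurod4.

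**Figure D2:**
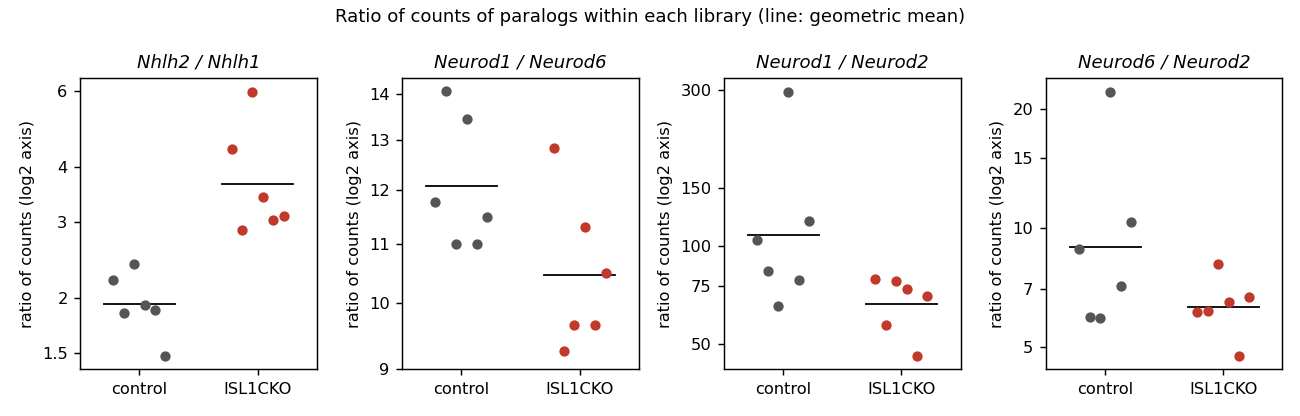
Ratio of counts of paralogs within each library on a log2 axis, with 1 point per library and a line at the geometric mean. The 6 ISL1CKO libraries all exceed the controls for Nhlh2 to Nhlh1, whereas the groups overlap for the 3 ratios among NeuroD genes.

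Bhlhe22, a bHLH repressor known from subtype choice in retina, cortex and spinal cord, was the member that fell. It is a gene of 1 exon at chr3:18054174-18057517 on the plus strand. The ISL1CKO libraries ran from 1.22 through a median of 3.54 to 6.78 CPM, and the controls from 13.02 through 15.7 to 33.7 CPM. Every ISL1CKO library was below every control. The log2 fold change was -2.36 (SE 0.39), with an adjusted p of 0.000915 by edgeR's quasi-likelihood test. Per kilobase of exon Bhlhe22 stood at 5.89 ± 2.50 CPM in control, near Neurod2 at 4.86 ± 2.51 CPM and within its spread, and in ISL1CKO it fell to 1.14 ± 0.59 CPM against 13.6 ± 5.23 CPM for Neurod2.

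By the criterion of groups that do not overlap, 5 of the 7 tested members separated, against 6.78% of all tested genes (3.13% as higher and 3.65% as lower). By level per kilobase, the members in controls were ordered Neurod1, Nhlh1, Nhlh2, Neurod6, Bhlhe22, Neurod2, Neurog1 and Neurod4. The ISL1CKO order was Neurod1, Nhlh2, Neurod6, Nhlh1, Neurod2, Bhlhe22, Neurog1 and Neurod4. Neurod6 and Nhlh1 in ISL1CKO, at 122 ± 33.8 and 105 ± 34.8 CPM per kilobase, were within their spread.

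The bHLH relatives fixed beside the members held 17 genes, of which 13 were in the table and 2 passed the filter. Bhlhe23, the closest relative of Bhlhe22, rose from 1.94 ± 1.14 CPM in control to 14.97 ± 7.12 CPM in ISL1CKO (SD, n = 6 each), opposite in direction to Bhlhe22. Its controls ran from 0.0834 to 2.85 CPM and its ISL1CKO libraries from 7.60 to 24.3 CPM, without overlap. The log2 fold change of Bhlhe23 was 2.94 (SE 0.55, adjusted p 0.00249 by edgeR's quasi-likelihood test). It shares exon bases with Gm14343 on the same strand. Atoh8 gave a log2 fold change of 2.56 with an adjusted p of 0.111, and 2 genes of the list were called by the DESeq2 Wald test and without ISL1CKO 3.

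Among the E proteins, the dimer partners, 2 of 3 rose and 0 fell. Tcf12 was 110 ± 11.1 CPM in ISL1CKO and 80.5 ± 7.21 CPM in control, with a log2 fold change of 0.46 (adjusted p 0.00448) and no overlap. Tcf4 was 155 ± 44.9 and 94.5 ± 6.00 CPM, with a log2 fold change of 0.71 (adjusted p 0.00951) and with ISL1CKO 3 inside the control range. Tcf3 was 49.5 ± 12.1 and 59.9 ± 12.6 CPM and did not pass (adjusted p 0.427). The median log2 fold change of the list was 0.46. Without ISL1CKO 2, 3 and 5, 1 of the 3 was called.

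Of the 4 ID genes, 1 fell, namely Id4, from 42.1 ± 4.89 CPM in control to 14.6 ± 7.22 CPM in ISL1CKO, a log2 fold change of -1.53 (SE 0.27, adjusted p 0.0015) with no overlap. Id4 shares exon bases with A330033J07Rik and Gm49291 on the opposite strand. Id1, Id2 and Id3 had log2 fold changes of -0.34, 0.40 and -0.27, none past the threshold. Of the MTG corepressors, which bind E proteins and NeuroD-class complexes, 2 of 3 rose. Runx1t1 was 532 ± 70.6 CPM against 368 ± 49.8 CPM, a log2 fold change of 0.53 (adjusted p 0.00379), and Cbfa2t3 was 32.1 ± 15.3 CPM against 11.2 ± 4.36 CPM, a log2 fold change of 1.51 (adjusted p 0.0145). Cbfa2t3 shares exon bases with Gm10612 on the opposite strand. In 3 of 22 alternatives 1 MTG gene was called in place of 2: the replicate block, the marker covariates, and the fit without ISL1CKO 4 and control 1.

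Of the HES and HEY repressors, which act against proneural genes under Notch signalling, 2 of 8 passed the filter and 0 were called. Hey1 had a log2 fold change of 0.78, an unadjusted p of 0.00905 and an adjusted p of 0.074. Hes5, which did not pass the filter, went the other way on few counts. It ran from 0 to 0.511 CPM in ISL1CKO and from 0.555 to 2.84 CPM in control. In 4 of 22 alternatives 1 gene of the list was called, namely the DESeq2 Wald test, the replicate block, and the fits without ISL1CKO 1 and without control 4. Neurogenesis genes, a list of Notch ligands, zinc finger and EBF factors and early neuronal genes downstream of proneural factors in other tissues, gave 8 higher and 2 lower calls among 23 tested, with a median log2 fold change of 0.30. Without ISL1CKO 2, 3 and 5, 6 of the list were called. St18, a zinc finger factor of the Myt family, rose from 193 ± 56.4 to 469 ± 94.1 CPM (log2 fold change 1.28, adjusted p 0.000479). Stmn2, a microtubule regulator of growing axons, rose from 1896 ± 183 to 2760 ± 312 CPM (0.54 on the log2 scale, adjusted p 0.000608). Eya2, a transcriptional coactivator, rose from 10.5 ± 2.09 to 22.9 ± 6.67 CPM (1.12 on the log2 scale, adjusted p 0.00426). The genes that fell were Gadd45g, a growth arrest gene, at -0.69, and Elavl4, a neuronal RNA-binding protein, at -0.49, both named because only 2 genes of the list fell. The values of this paragraph and of the ID, MTG and E protein lists are from edgeR's quasi-likelihood test, and the lists were read beside the 10.2% called over all genes.

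**Figure D3:**
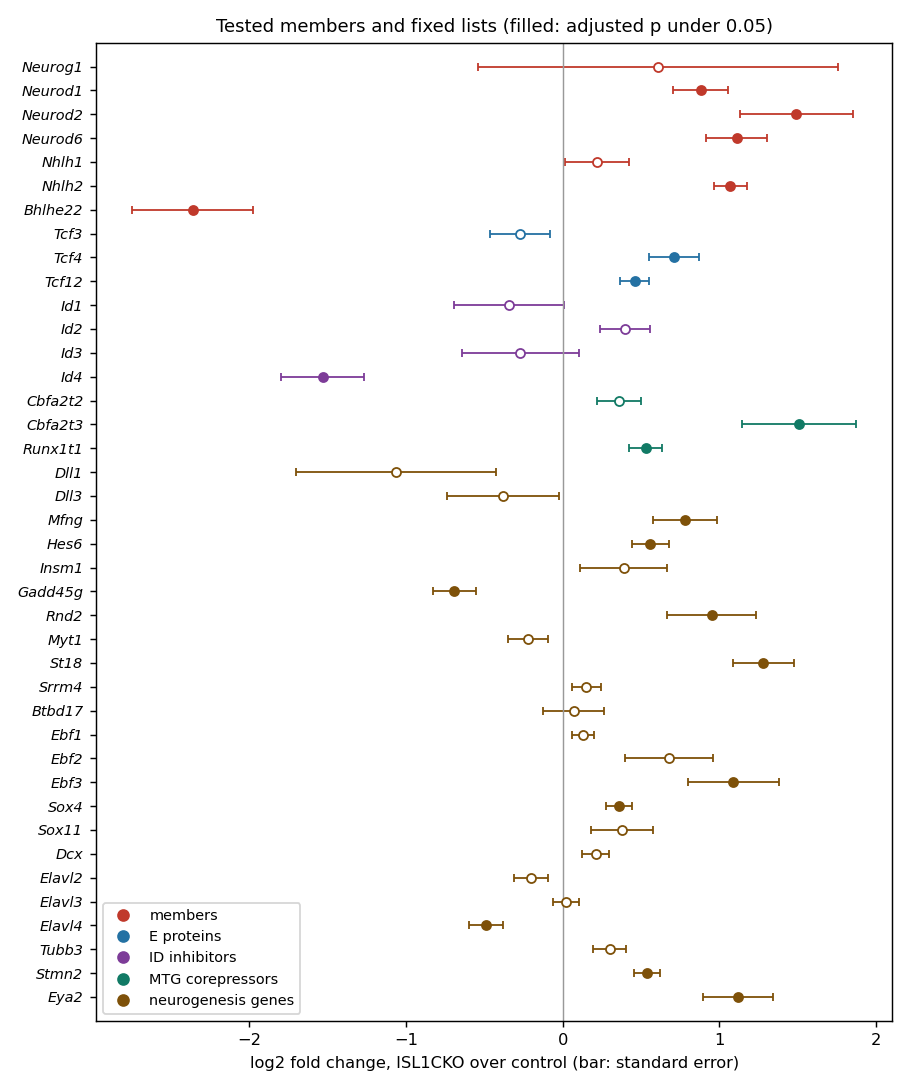
Log2 fold change of the 7 tested members and of the tested E protein, ID, MTG and neurogenesis genes, with bars of 1 standard error and filled points where the adjusted p is under 0.05. Bhlhe22 at -2.36 and Id4 at -1.53 lie farthest to the lower side among the filled points, and Cbfa2t3 at 1.51 and Neurod2 at 1.49 farthest to the higher side.

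Within the groups, 4 of the 6 members examined, Neurod1, Neurod6, Nhlh1 and Nhlh2, varied inversely with the ID genes. The summed level of Id1 to Id4 was 406 to 829 CPM in ISL1CKO and 429.5 to 796 CPM in control, and it did not separate the genotypes. Libraries with more ID transcript had less Neurod1, as in ISL1CKO 3 (829 CPM of ID genes, 1852 CPM of Neurod1) against ISL1CKO 6 (406 and 3574 CPM). With both measures on a log2 scale and centred on their group means, Pearson's r over the 12 libraries was -0.918 for Neurod1 and Spearman's rho was -0.881. The exact permutation p within groups was 6.75e-05 for r and 0.000442 for rho, and 0.000405 and 0.0021 after adjustment over the 6 members examined. Without ISL1CKO 3 and control 1, the 2 libraries farthest from the median of the centred ID sum, r was -0.907. Without ISL1CKO 2, 3 and 5 it was -0.922. It was -0.954 within the ISL1CKO libraries and -0.928 within the controls.

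Nhlh1, which did not differ between genotypes past the threshold, had an r of -0.920 and a rho of -0.895, with adjusted exact permutation p-values of 0.000625 and 0.0021. Its r was -0.890 without the 2 farthest libraries. Neurod6 gave r -0.887 and rho -0.825 (adjusted exact permutation p 0.00281 and 0.0124), and Nhlh2 gave r -0.755 and rho -0.678 (0.0109 and 0.0336). Without the 2 farthest libraries these were -0.815 and -0.654. For Neurod2, r was -0.503 and rho -0.399, with adjusted exact permutation p-values of 0.109 and 0.225. The Neurod2 r was -0.936 within the ISL1CKO libraries, -0.181 within the controls, -0.280 without the 2 farthest libraries and -0.330 without ISL1CKO 2, 3 and 5. For Bhlhe22, r was 0.320 and rho 0.301, with adjusted exact permutation p-values of 0.383 and 0.370. The Bhlhe22 r was 0.242 within the ISL1CKO libraries, 0.489 within the controls, 0.592 without the 2 farthest libraries and 0.757 without ISL1CKO 2, 3 and 5, so both values move with the libraries used. The relation was examined after the values had been seen.

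Among the 9596 genes of a mean log2 CPM of at least 3, Id2 and Id3 had the 2nd and 3rd most negative r with Neurod1, at -0.877 and -0.875. Id1 was further down, at rank 210, and Id4 below it. Other measures of the libraries had weaker relations to Neurod1. The r was -0.516 for summed macrophage markers, 0.256 for Schwann cell markers, 0.207 for genes of dividing cells and 0.389 for the total count. It was 0.831 for the summed E proteins and 0.738 for Isl1. These values are descriptions of the same 12 libraries, and what sets the spread of the ID genes was not tested.

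**Figure D4:**
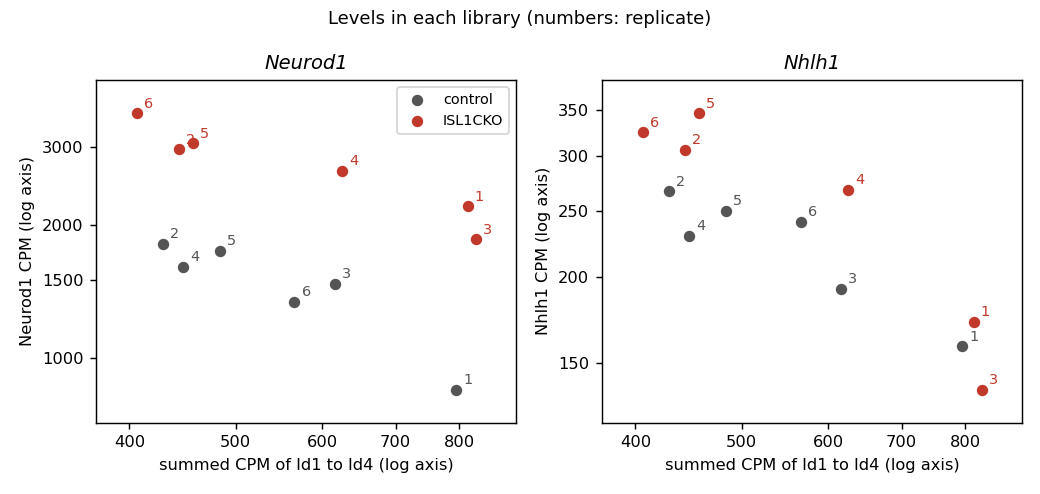
Neurod1 (left) and Nhlh1 (right) in CPM against the summed CPM of Id1 to Id4 in each library, on log axes, with the replicate number beside each point. Both genes decline as the ID sum rises in each group, and for Neurod1 the ISL1CKO libraries lie above the controls at a like ID sum.

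Genes with the pattern most like each called member were sought among 9595 genes of a mean log2 CPM of at least 3, by the root mean square difference of centred log2 CPM over the 12 libraries. Centring was on the mean of all 12 libraries, so a like difference between genotypes counts toward likeness. Likeness within a genotype was not examined separately. For Neurod1 they were Pcdh17 at 0.135, Btg2 at 0.170 and Neurod6 at 0.182, and Nhlh2 was 7th. For Neurod6 they were Neurod1 at 0.182, Fam110a at 0.197 and Nrp2 at 0.203. Nhlh2 was most like Grik2 at 0.150, Cstf2t at 0.154 and Ube2e3 at 0.171. Neurod2 came nearest to Ncam2 at 0.381, Sh3bgrl2 at 0.395 and Cald1 at 0.479. Bhlhe22 came nearest to Ntng1 at 0.566, S100a13 at 0.570 and Sema6d at 0.581. The lower-count members thus had no neighbour as close as those of Neurod1, Neurod6 and Nhlh2.

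Markers of other cells that the sort could hold were compared beside the members. Of the macrophage markers 0 of 9 tested were called, and their sum was 1.53 to 765 CPM in ISL1CKO and 2.07 to 406 CPM in control. Control 1, highest among controls for that sum, was also the lowest control for Neurod1, Neurod6, Nhlh1 and Nhlh2. ISL1CKO 4, the highest of all libraries for that sum, was not the lowest of its group for any of these genes. It held 2648 CPM of Neurod1, 234 of Neurod6, 268 of Nhlh1 and 916 of Nhlh2. A further fit added the mean log2 level of the macrophage markers and that of the Schwann cell markers, in place of these sums. In it the log2 fold change was 1.03 for Neurod1 and 1.29 for Neurod6, and 5 members were called. Schwann cell markers (0 of 6 called) summed to 34.8 to 254 CPM in ISL1CKO and 40.0 to 186 CPM in control, and genes of dividing cells (0 of 7) to 86.7 to 395 and 80.3 to 199 CPM. Central neuron markers, which bear on Neurod2 and Neurod6 as cortical genes, summed to 1.39 to 4.95 CPM and 1.08 to 6.09 CPM, with 0 of 1 tested called.

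Hair cell markers (2 of 5 tested lower) summed to 293 to 581 CPM in ISL1CKO and 257 to 543 CPM in control. Most of that sum was 1 gene, Myo6, with means of 410 and 407 CPM. Otof averaged 1.35 and 1.79 CPM, and Pou4f3 0.0508 and 0.544 CPM. The 2 lower genes were Rasd2, at 0.0976 and 3.66 CPM, and Ccer2, at 3.83 and 36.8 CPM. Otic epithelium markers (0 of 3) summed to 14.6 to 53.9 and 10.5 to 28.2 CPM. Mesenchyme markers were higher for 2 of 4 tested, with sums of 70.3 to 120.5 CPM against 38.4 to 84.3 CPM. The 2 were Tbx18, with means of 39.5 CPM in ISL1CKO and 1.09 CPM in control, and Col3a1, with 14.1 and 2.66 CPM. Pou3f4 went the other way, at 27.4 and 52.9 CPM, and was not called. Of the markers that did not pass the filter, Twist1 was lower, at 0.0129 and 1.13 CPM without overlap. Prrx1, also not tested, was higher, at 4.72 and 0.337 CPM with overlap. Erythroid markers (0 of 1) summed to 1.01 to 5.87 CPM and 1.41 to 4.82 CPM. Some of the spiral ganglion and mesenchyme markers moved with genotype, and not all in the same direction. Their part in the members' changes was not tested. In such pools of 100 cells, fewer cells that express a gene and less of its RNA per cell cannot be told apart.

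**Figure D5:**
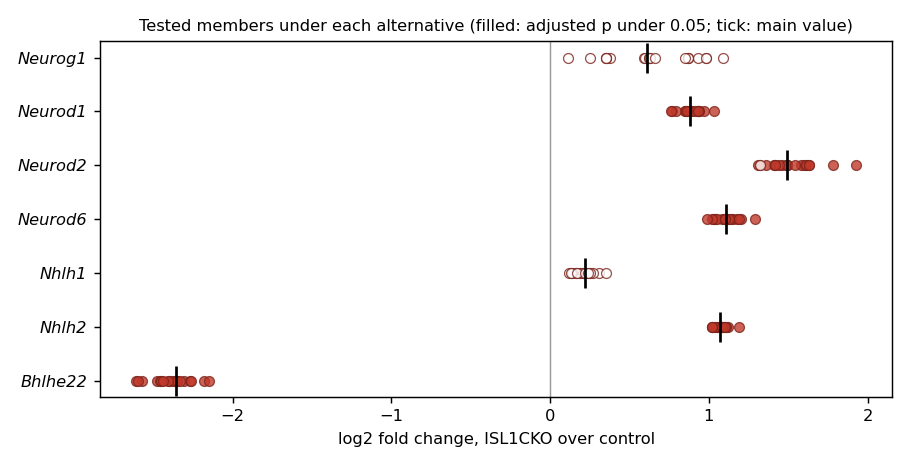
Log2 fold change of each tested member, as ISL1CKO minus control, under the main setting and each alternative. Neurod1 stays between 0.76 and 1.03, Neurod6 between 0.99 and 1.29, Nhlh2 between 1.02 and 1.19, Neurod2 between 1.31 and 1.93 and Bhlhe22 between -2.61 and -2.15.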

How the data were processed

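RNA was measured in 12 libraries of sorted neurons, made with a low-input kit without molecular identifiers and read on a NextSeq instrument, per the labels' protocols. The table the authors deposited gives raw whole-number counts for 25674 Ensembl identifiers. Per the submitters' processing notes, cutadapt 1.18, Bowtie 1.2.2, STAR 2.7.0c, featureCounts and the build GRCm38.p6 were used. The roles of these tools, the annotation and the use of strand are not given in the sources used here. Columns were matched to samples by group and number, with 0 left over. Symbols, positions and exon lengths come from GENCODE M21 on GRCm38, which located 25620 identifiers.

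Counts were tested with edgeR 4.0.16 in R 4.3.3: filterByExpr with a minimum count of 10, TMM scaling, the robust quasi-likelihood F-test on genotype with no covariate, and Benjamini-Hochberg adjustment over all 14813 tested genes at a threshold of 0.05. The SE is the absolute log2 fold change over the square root of F. Levels are CPM after TMM scaling. The floor of 3 counts covers counting error only.

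The members and lists were chosen with earlier results of these data known, and 1 of the marker lists is not reported here. Genes were named by rule: all members, up to 3 genes with the smallest p among the called genes of each related list, the 3 genes most like each called member, and Isl1. Atoh8, Tcf3, Id1, Id2, Id3, Hes5, Hey1, Gadd45g, Elavl4 and Gsto1 fall outside this rule and were named after their values were seen. The same holds for cell type marker genes named singly, other than Isl1. Ratios and the ID relation, computed with scipy 1.17.1, were added after the levels were seen. Alternatives were DESeq2 1.42.0 size factors and Wald test, upper quartile scaling, no filter, a mean of at least 5 CPM, limma-voom 3.58.1 with sample weights, the replicate block, marker covariates, and fits without ISL1CKO 2, 3 and 5 together, without each library in turn and, chosen after seeing the data, without ISL1CKO 4 and control 1 together.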

Additional observations from a re-analysis of the deposited data

Results flagged for a closer look

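Of 34 groups of 6 libraries checked for a single library far from the other 5, 3 were picked out, and chance alone gives about 1.7. Neurod4 was 6.86 CPM in ISL1CKO 5, while the other ISL1CKO libraries had 0.0762 to 0.388 CPM. Summed macrophage markers were 765 CPM in ISL1CKO 4, against 1.53 to 250 CPM in the others of its group. In control 1 the same sum was 406 CPM, against 2.07 to 70.0 CPM in the other controls.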

How the results depend on the processing

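Over 22 alternatives, the 5 called members kept their direction, and 4 or 5 members were called in each. Neurod2 was the exception: without the 3 ISL1CKO libraries with transcripts of both sexes its log2 fold change was 1.32 with an adjusted p of 0.114 (0.000254 to 0.114 over its alternatives), and its cause was not tested, although that fit has fewer samples. The same setting lowered the number of genes called from 1511 to 767. Leaving out 1 library at a time gave 1178 to 1517 genes and 5 members called. The DESeq2 Wald test called 2082 genes. Without ISL1CKO 4 and control 1, an alternative chosen after seeing the data, 1045 genes and 5 members were called. Calls in the related lists ranged from 11 to 18, and without the both-sex libraries 1 E protein and 6 neurogenesis genes were called. The replicate numbers were not treated as pairs: same-numbered libraries deviated together with r above 0.1 in 1 of 6 pairs, and 2 of 6 controls correlated best with their own number. With the replicate block 1450 genes and 5 members were called. The MTG list had 1 call in place of 2 in 3 alternatives (the block, the marker covariates, and without ISL1CKO 4 and control 1), and the HES and HEY list had 1 in place of 0 in 4 (the Wald test, the block, without ISL1CKO 1 and without control 4). Precision is limited for Neurog1, with 0 or 11 to 31 counts in each library, and for Neurod4, with 1 to 6 counts in all libraries but 1; the effect of depth was not tested.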
